A study of Mus musculus with 3 samples.

Results

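The Ly49 receptors are C-type lectin proteins of the mouse cell surface, encoded by a cluster of Klra genes on chromosome 6. Klra1 (Ly49A), Klra3 (Ly49C), Klra6 (Ly49F), Klra7 (Ly49G) and Klra9 (Ly49I) were described here. They were matched by symbol and are 5 of the 32285 genes in the files, which hold 6 further Klra genes. The study's title names interleukin-2 directed at LAG3, and the labels name 3 groups, PBS, mix and homo, with 1 single-cell library each. MC38 tumours, which grow from a mouse colon carcinoma line, were taken at day 15, after 5 days of treatment, and dissociated cells were stained for CD3 and sorted. The contents of mix and homo, the strain, genotype, age and number of animals behind a library are not given in the labels. With 1 library per group no difference between groups can be tested, so every interval below is a 95% interval for counting error only, and animal, batch and treatment cannot be told apart.

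Most Ly49 receptors bind classical MHC class I molecules and carry inhibitory motifs that recruit the phosphatase SHP-1 (Ptpn6). The 5 members belong to this inhibitory kind. Others, such as Ly49D (Klra4) and Ly49H (Klra8), pair with the adaptor DAP12 (Tyrobp) and activate. Ly49 receptors are best known on natural killer (NK) cells, where each cell switches on its own subset of the genes. They also occur on some memory-like, innate-like and regulatory CD8 T cells.

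The genes are close copies, which bears on every value. In the GENCODE M21 transcripts, the longest open reading frames of Klra3 and Klra9 were 95.9% identical, those of Klra6 were 91.0% and 91.6% identical to Klra3 and Klra9, and Klra1 and Klra7 were 87.8% identical. The assay reads the 3′ end of a transcript. Of the 50-base stretches in the last 500 bases of the annotated transcript, 42.4% of those of Klra3 and 44.8% of those of Klra9 also occurred in another gene, as did 27.5% of those of Klra7, all in the pseudogene Klra13-ps. The shares were 5.76% for Klra1 and 3.10% for Klra6. Over 90-base stretches the shares were 8.52% for Klra3, 14.1% for Klra9 and 10.2% for Klra7, and none for Klra1 and Klra6. Counts of Klra3, Klra9 and Klra7 are therefore less certain to belong to the named gene than those of Klra1 and Klra6, and how the authors' counting split such reads was not tested.

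The starts of the genes are also alike. In the RefSeq windows of GRCm38.p6 (250 bases before each annotated start, minus strand of chromosome 6), 1 run of 18 bases was shared by Klra3, Klra6, Klra7 and Klra9. It occurred in 5 of 32851 windows in the table (0.0152%), the remaining one being that of the gene model Gm52487, and was absent from the window of Klra1 and from that of the second annotated start of Klra7. The 3 windows below are shown because Klra7 and Klra6 often shared barcodes, as described further on, while Klra3 was mostly detected without Klra7. The shared run is in capitals.
Klra7, chr6:130233323-130233572: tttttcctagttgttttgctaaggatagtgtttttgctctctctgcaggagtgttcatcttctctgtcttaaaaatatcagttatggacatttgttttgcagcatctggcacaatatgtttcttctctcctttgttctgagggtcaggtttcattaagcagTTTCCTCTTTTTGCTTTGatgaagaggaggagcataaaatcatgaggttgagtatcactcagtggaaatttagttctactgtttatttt
Klra6, chr6:130026955-130027204: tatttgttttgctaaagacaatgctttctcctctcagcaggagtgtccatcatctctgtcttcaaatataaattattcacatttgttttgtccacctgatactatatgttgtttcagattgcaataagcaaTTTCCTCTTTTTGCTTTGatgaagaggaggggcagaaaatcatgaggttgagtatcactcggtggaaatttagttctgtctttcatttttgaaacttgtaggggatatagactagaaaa
Klra3, chr6:130337627-130337876: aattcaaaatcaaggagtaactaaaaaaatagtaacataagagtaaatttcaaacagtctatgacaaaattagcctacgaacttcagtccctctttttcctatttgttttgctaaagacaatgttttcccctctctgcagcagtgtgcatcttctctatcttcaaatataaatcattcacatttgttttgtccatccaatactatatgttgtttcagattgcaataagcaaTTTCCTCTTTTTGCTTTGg
The core motif CTTTGA, to which the factor encoded by Tcf7 is known to bind, was searched on both strands. It matched once in each of the printed windows of Klra6 and Klra7, overlapping the end of the shared run, once, on the opposite strand, at the second annotated start of Klra7, and had no match in the windows of Klra3, Klra9 and Klra1. It is a common motif, present in 13.8% of all windows. A second motif searched on both strands, TGTGGT, the core bound by RUNX factors, matched once in the window of Klra1 and not in those of the other members, and is in 14.05% of all windows. A match is a description of letters only.

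The files held 10351, 8461 and 8528 barcodes for PBS, mix and homo, with 56427870, 49179708 and 65336646 unique molecular identifiers (UMIs, counted transcript molecules). After filters 9214, 7588 and 7303 barcodes were analysed, of which 9079, 7482 and 7233 carried a CD3 gene and few macrophage genes and are called T barcodes. Between 100 and 131 barcode sequences were shared by any pair of libraries. The homo library stood apart in having 4.07% of barcodes over the mitochondrial limit, against 0.251% in PBS and 0.307% in mix. Of the barcodes removed for the highest doublet scores, 4.98%, 6.45% and 16.3% held a Ly49 UMI. The T barcodes were split into exclusive gates. The CD8 gate (Cd8a or Cd8b1, without Foxp3, Cd4 and Tyrobp) held 6957, 5467 and 6262 barcodes, with median depths of 5079, 5604 and 6852 UMIs. The Tyrobp gate (2 or more Tyrobp UMIs) held 71, 52 and 141, or 0.782%, 0.695% and 1.95% of T barcodes. The Foxp3 gate held 824, 792 and 123, and its 4 regulatory markers summed to 3006, 2882 and 2068 UMIs per 1000000 UMIs of the gate (CPM), against 257, 246 and 226 CPM in the CD8 gate. T barcodes outside these and outside those with 1 Tyrobp UMI numbered 1121, 1083 and 557. Levels are given in CPM throughout. They count 3′ ends and are not corrected for transcript length, so they are compared between gates and libraries and not between genes. Intervals of CPM and of their ratios treat UMIs as independent. Several UMIs of a gene often came from 1 barcode, so these intervals leave out which cells were sampled and are too narrow. In the Tyrobp gate of PBS, for example, 89 Klra7 UMIs came from 13 barcodes, with up to 26 in 1 barcode.

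Ly49 transcripts were rare in the sorted T cells and were concentrated in few barcodes. At least 1 UMI of any member was found in 332 of 9079 T barcodes in PBS (3.66%, exact interval 3.28% to 4.06%), 321 of 7482 in mix (4.29%, 3.84% to 4.77%) and 643 of 7233 in homo (8.89%, 8.24% to 9.57%). The homo library lay above the others by more than counting error. Thinned to 2000 UMIs per barcode to remove differences in depth, the shares were 2.48%, 2.78% and 4.99%, in the same order.

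Regulatory T cells served as the background. In the Foxp3 gate 1 of 824 barcodes in PBS held 1 UMI each of Klra1, Klra6 and Klra7 (0.121%). None of 792 in mix and none of 123 in homo held a member, which allows shares of up to 0.379% and 2.44%. Their median depths of 3072, 3436 and 3372 UMIs were below those of the CD8 gate, where the shares were 3.72%, 4.83% and 7.94% (2.32%, 2.88% and 4.06% after thinning). In the myeloid barcodes, 36, 12 and 5 in number, 1 Klra3 UMI was found, in homo. Klra2 (Ly49B), which is known from myeloid cells and is no member, had 39 UMIs in the 36 myeloid barcodes of PBS.

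The summed level of the 5 genes was higher in the Tyrobp gate than in the CD8 gate of every library, by 10.6-fold in PBS, 16.4-fold in mix and 11.3-fold in homo. It was 254 CPM (Poisson interval 215 to 298) in PBS, 394 CPM (338 to 456) in mix and 288 CPM (260 to 317) in homo. In the CD8 gate it was 23.9, 24.0 and 25.5 CPM. The log2 ratio of the gates was 3.41 (3.15 to 3.66) in PBS, 4.03 (3.79 to 4.27) in mix and 3.49 (3.33 to 3.66) in homo. The gate is small, so that most of the family's UMIs still lay elsewhere: it held 11.2%, 15.1% and 20.4% of the members' UMIs in T barcodes, while the CD8 gate held 71.6%, 70.6% and 61.1%.

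**Figure D1:**
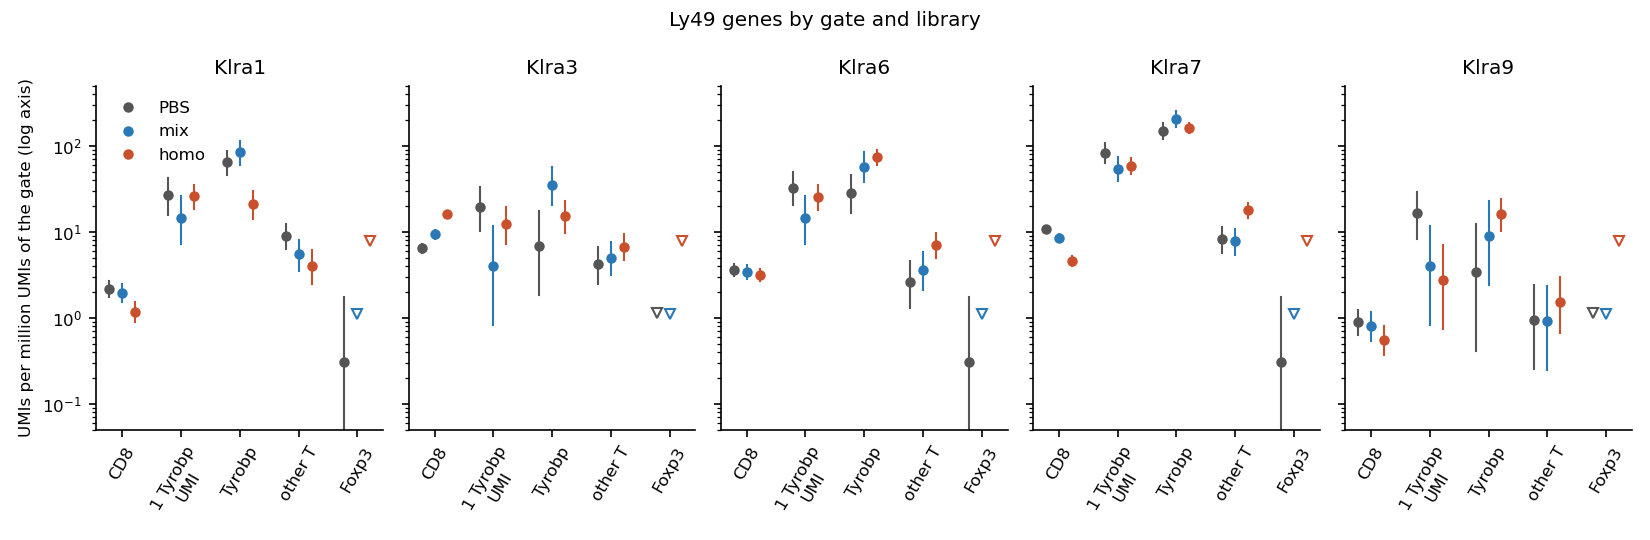
Level of each gene, in CPM on a log axis, by gate and library. Points are libraries, bars are exact Poisson intervals, and open triangles mark the upper interval end where no UMI was counted. Klra7 lies between 151 and 207 CPM in the Tyrobp gate and between 4.62 and 10.8 CPM in the CD8 gate, whereas Klra3 in PBS and homo is at about the same level in both.

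Klra7, the receptor Ly49G, gave the most UMIs in PBS and mix. Its level in the Tyrobp gate was 151 CPM in PBS, 207 CPM in mix and 162 CPM in homo. In the CD8 gate it was 10.8, 8.49 and 4.62 CPM. All 3 Tyrobp gates lay above all 3 CD8 gates, and the log2 ratio within a library was 3.80 (3.46 to 4.13), 4.61 (4.25 to 4.95) and 5.13 (4.86 to 5.40). Barcodes with exactly 1 Tyrobp UMI lay between, at 83.6, 54.8 and 58.8 CPM. It was detected in 13 of 71, 13 of 52 and 39 of 141 barcodes of the Tyrobp gate, and in 116 of 6957, 91 of 5467 and 78 of 6262 of the CD8 gate.

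Klra1 and Klra6 were distributed in the same way. Klra1, which encodes Ly49A, a receptor for H-2D molecules, was at 64.4, 84.5 and 20.9 CPM in the Tyrobp gate of PBS, mix and homo and at 2.18, 1.97 and 1.17 CPM in the CD8 gate. The homo value in the Tyrobp gate lay below the other two intervals (45.6 to 88.4 in PBS, 59.8 to 116 in mix). In CPM it was 0.32-fold of PBS and 0.25-fold of mix. By share of barcodes with Klra1 the difference was smaller, at 0.67-fold and 0.55-fold. Klra6, encoding Ly49F, was at 28.8, 57.8 and 73.8 CPM in the Tyrobp gate and at 3.61, 3.42 and 3.13 CPM in the CD8 gate. Here PBS was lowest, with an interval of 16.8 to 46.1 that overlapped that of mix, 37.8 to 84.7, and not that of homo, 60.4 to 89.3.

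Klra9, encoding Ly49I, was the rarest. It had 53, 39 and 62 UMIs in all T barcodes of PBS, mix and homo, found in 30, 28 and 34 barcodes. Of these barcodes 56.7%, 75.0% and 50% held a single UMI. Its CD8 gate levels of 0.901, 0.811 and 0.556 CPM had overlapping intervals. In the Tyrobp gate it was at 3.39 CPM on 2 UMIs in PBS, 8.89 CPM on 4 UMIs in mix and 16.01 CPM on 23 UMIs in homo.

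Klra3, encoding Ly49C, departed from this pattern. Its Tyrobp gate held 4, 16 and 22 UMIs, or 6.78, 35.6 and 15.3 CPM, against 6.43, 9.36 and 16.1 CPM in the CD8 gate. The log2 ratio of the gates had an interval including 0 in PBS (0.07, -1.81 to 1.45) and homo (-0.07, -0.75 to 0.54) and was 1.93 (1.10 to 2.65) in mix. Of its UMIs in T barcodes 88.0% lay in the CD8 gate in PBS, 88.7% in mix and 91.2% in homo. For Klra7 the same shares were 70.5%, 63.6% and 35.3%.

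The Tyrobp gate was not the same mixture in every library. The 7 dendritic cell markers summed to 1826 CPM in its PBS barcodes and 1614 CPM in mix, against 87.7 CPM in homo, with 1, 0 and 1 of the 7 at 0. H2-Ab1, an MHC class II chain, was in 26.8%, 21.2% and 4.96% of the gate's barcodes. The NK receptor gene Ncr1 was in 5.63%, 3.85% and 3.55%, the T cell receptor alpha constant gene Trac in 80.3%, 75.0% and 78.7%, and the delta constant gene Trdc in none of 71, 52 and 141 barcodes, which allows shares of up to 4.23%, 5.77% and 2.13%. Klrb1c, encoding the NK1.1 antigen, was in 25.4%, 32.7% and 36.2%. The 8 NK markers, of which T cells also express several, summed to 2922, 2866 and 4825 CPM, and the 8 macrophage markers to 110.1, 193 and 30.6 CPM, with 2, 3 and 5 of them at 0. Klra17 (Ly49Q), known from plasmacytoid dendritic cells, was in this gate at 35.6 and 42.2 CPM in PBS and mix and 0 UMIs in homo. The CD8 gate held 17, 9 and 9 Klra17 UMIs in PBS, mix and homo. The part of these markers in the differences between libraries within the Tyrobp gate was not tested. In bulk sums such as these, fewer cells of a type and less RNA per cell cannot be told apart.

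Between libraries, the sum of the 5 genes in the CD8 gate was level while its members differed in opposite directions. The log2 ratio of the sum was 0.09 (-0.03 to 0.22) for homo over PBS and 0.01 (-0.13 to 0.14) for mix over PBS. Klra3 was 2.49-fold higher in homo than in PBS (log2 1.32, 1.11 to 1.53), while Klra7 was lower by a log2 ratio of -1.23 (-1.47 to -0.99). These were the 2 members that reached 10 CPM in either library, so 1 of 2 lay above a 2-fold difference and 1 of 2 below it. The Klra7 call was lost under several alternatives, with log2 ratios of -0.93 without doublet removal, -0.91 after thinning, -0.64 as a mean of CPM per barcode and -0.96 without barcodes holding both Trbv16 and Trbv31. Over all 7853 genes at that level, 0.675% lay above and 1.46% below. The mix library lay between PBS and homo for both genes: Klra3 was at a log2 ratio of 0.54 (0.30 to 0.78) over PBS and Klra7 at -0.35 (-0.57 to -0.13). Neither passed 2-fold in mix over PBS, where 0.219% of 7770 genes did so upward and 0.309% downward. Klra1 was lower in homo than in PBS (-0.89, -1.40 to -0.39), but the sign turned after thinning, at 0.13. Intervals for Klra6 and Klra9 included 0 in all 3 comparisons, although Klra6 was at 0.74 for homo over PBS after thinning, from -0.20. The sum was at 0.37 after thinning. Between homo and mix Klra3 alone reached 10 CPM and was 1.72-fold higher, short of 2-fold, a size that 0.814% of genes reached upward and 1.39% downward.

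Over all T barcodes the libraries were closer for Klra7 than in the CD8 gate. Klra7 was at 12.6 CPM in PBS, 10.6 in mix and 11.1 in homo, a log2 ratio of -0.18 (-0.34 to -0.02) for homo over PBS. Barcodes with 2 or more Klra7 UMIs made up 104 of 9079, 78 of 7482 and 109 of 7233 T barcodes (1.15%, 1.04% and 1.51%, with overlapping intervals). Their place differed: 74.0% of them were in the CD8 gate and 9.62% in the Tyrobp gate in PBS, 67.9% and 14.1% in mix, and 40.4% and 31.2% in homo. In T barcodes outside the named gates Klra7 was at 8.24, 7.75 and 17.9 CPM, highest in homo, where their median depth was 7023 UMIs against 2581 in PBS and 2896 in mix. The CD8 gate leaves out every barcode with a Tyrobp UMI. The part of that rule in the lower Klra7 of homo was not tested. Among CD8 barcodes without Foxp3 and Cd4, whatever their Tyrobp, those with 2 or more Klra7 UMIs made up 1.31%, 1.18% and 1.23%, with overlapping intervals. Klra3 differed as much over all T barcodes as in the CD8 gate, at 5.999, 8.39 and 15.0 CPM over all T barcodes, a log2 ratio of 1.32 (1.12 to 1.51) for homo over PBS. Klra6 over all T barcodes was at 4.01, 3.94 and 5.81 CPM, higher in homo than in PBS by a log2 ratio of 0.54 (0.28 to 0.80).

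In the Tyrobp gate the members split differently. All 5 members reached 10 CPM in homo or PBS. In homo over PBS, Klra3, Klra6 and Klra9 exceeded 2-fold upward and Klra1 downward, as did 4.89% and 11.2% of 8605 genes. The interval of the log2 ratio was 0.61 to 2.19 for Klra6, 0.22 to 5.37 for Klra9 and -2.36 to -0.89 for Klra1, and for Klra3 it included 0. Klra7 differed by a log2 ratio of 0.10 (-0.26 to 0.47). Between mix and PBS, Klra3 was 5.25-fold (log2 2.39, 0.76 to 4.43) and Klra6 2.01-fold (1.005, 0.07 to 1.98) higher in mix. There 7.01% of 8750 genes passed 2-fold upward and 7.99% downward. The Klra3 difference rested on very few cells. The gate held 4 Klra3 UMIs in PBS and 16 in mix, and only 5 and 6 T barcodes with Klra3 held any Tyrobp UMI. Between homo and mix, Klra1 (-2.02, -2.76 to -1.29) and Klra3 (-1.22, -2.21 to -0.19) were lower in homo by more than 2-fold, a size that 6.12% of 8540 genes passed upward and 11.9% downward. By share of barcodes with the gene, homo was at 0.55-fold of mix for Klra1 and at 1.20-fold for Klra3. The sum was higher in mix than in PBS by a log2 ratio of 0.63, but with the gate opened to 1 Tyrobp UMI the ratio was -0.06. Among the few Tyrobp barcodes without CD8 genes, 10 of 11 in homo held a member, against 3 of 13 in PBS and 1 of 11 in mix.

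A barcode that held a member often held several UMIs of it. Klra7 had the highest counts: positive T barcodes held 3.95, 3.81 and 4.097 UMIs on average and up to 26, 34 and 35. Counts of different genes are not corrected for length or for stretches shared between the genes. Klra3 had means of 2.101, 2.49 and 1.97 and at most 11. In homo 52.8% of Klra3 barcodes held a single UMI, against 29.7% of Klra7 barcodes. The higher Klra3 of homo was seen in the number of positive barcodes, 392 of 6262 in the CD8 gate (6.26%) against 124 of 6957 (1.78%) in PBS, and not in more UMIs per positive barcode. After thinning these shares were 2.78% and 0.860%.

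**Figure D2:**
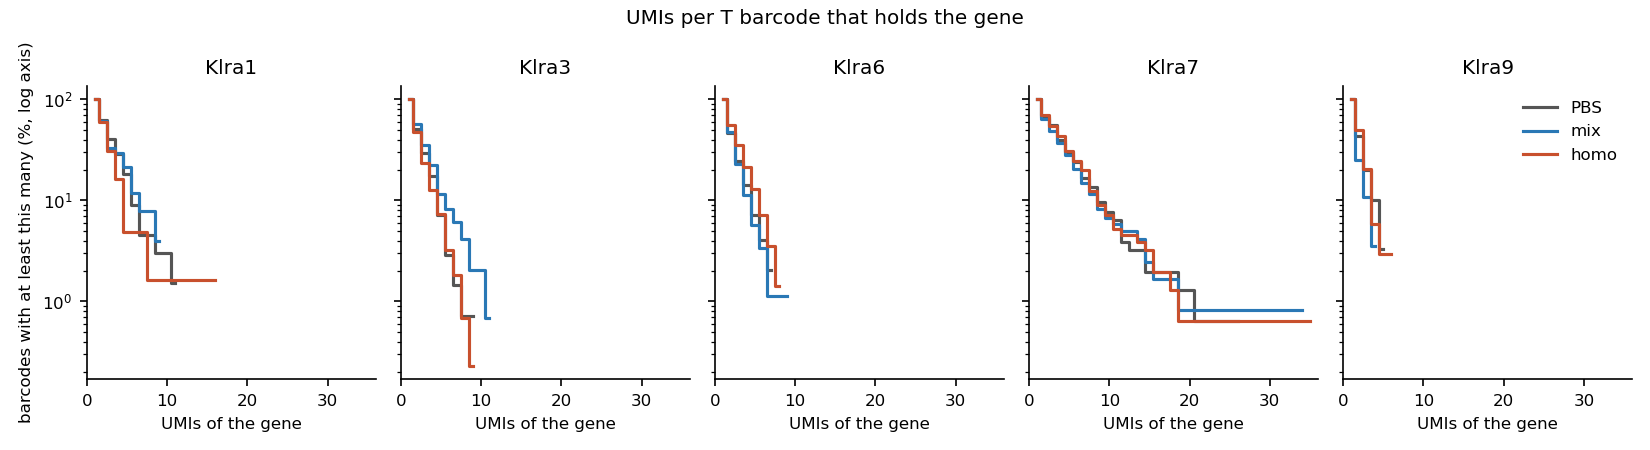
For T barcodes with at least 1 UMI of a gene, the percent that hold at least the number of UMIs on the x axis, on a log axis, 1 line per library. Klra7 reaches up to 35 UMIs in a barcode and the lines of the 3 libraries lie close together, while Klra3 ends at 11.

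Klra7, Klra6 and Klra1 were often found in the same barcode. Of barcodes with Klra1, 53.0% in PBS, 47.1% in mix and 56.5% in homo also held Klra7, against 1.33%, 1.31% and 1.67% of T barcodes without Klra1. Of those with Klra6, 61.2%, 48.9% and 53.6% held Klra7. Median depths of T barcodes with and without Klra1 were 4657.5 and 4659 UMIs in PBS, 5680 and 4976 in mix, and 4842 and 6867 in homo. Most positive barcodes still held 1 member: 65.4%, 73.5% and 77.8%. None of the 332, 321 and 643 held all 5.

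Klra3 shared fewer of its barcodes with the other members, but more than barcodes without it did. Of barcodes with Klra3, 12.9% in PBS, 8.90% in mix and 3.23% in homo held Klra7, against 1.53%, 1.47% and 2.07% of T barcodes without Klra3. Klra6 was in 12.9%, 9.59% and 5.99% of them, against 0.895%, 1.01% and 1.68%. The shares of Klra7 and Klra6 were thus above those without Klra3 in every library, by the least for Klra7 in homo. There its interval, 1.77% to 5.35%, included the share without Klra3. So did the intervals of Klra1 and Klra9 in homo and of Klra9 in mix. Barcodes with Klra3 were also deeper, with medians of 6617, 6652 and 8678.5 UMIs against 4632, 4950 and 6737 without it, and the part of depth was not tested. Klra3 and Klra9, the pair most alike in sequence, were together in 6, 1 and 5 barcodes.

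**Figure D3:**
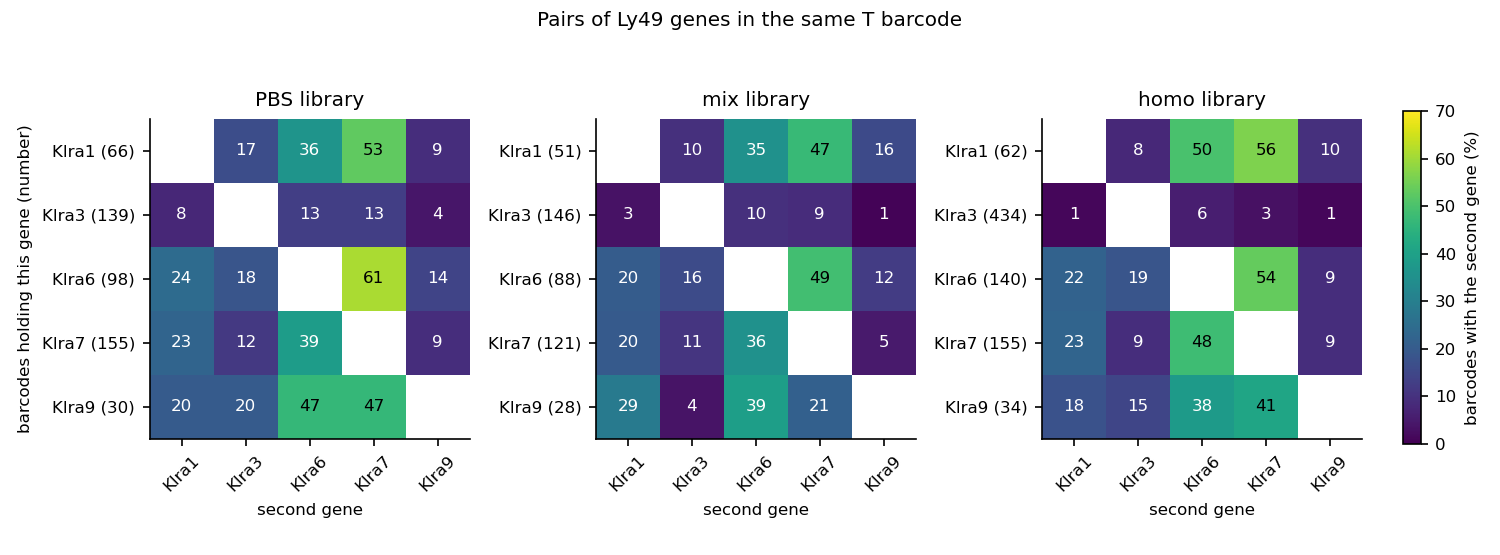
Percent of T barcodes holding the gene of the row (number in parentheses) that also hold the gene of the column, per library. The entries joining Klra1, Klra6 and Klra7 lie between 19.8% and 61.2%, while the row of Klra3 does not pass 12.9%.

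Klra7 and Klra3 barcodes also differed in Tyrobp and in the CD8 beta chain. Tyrobp was in 17.4%, 15.7% and 34.8% of Klra7 barcodes of PBS, mix and homo, against 1.68%, 1.64% and 3.35% of T barcodes without Klra7. It was in 3.597%, 4.11% and 5.07% of Klra3 barcodes, against 1.92%, 1.83% and 3.96% without Klra3. The beta chain gene Cd8b1 was in 48.4%, 44.6% and 47.1% of Klra7 barcodes but in 77.7%, 84.9% and 92.6% of Klra3 barcodes.

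To describe what else went with the receptors, CD8 barcodes (without Foxp3 and Cd4, whatever their Tyrobp) were split into those with 2 or more Klra7 UMIs (93, 66 and 80), those with 2 or more Klra3 UMIs and none of Klra1, Klra6 and Klra7 (49, 64 and 177), and those with no member (6798, 5293 and 5940). Both Ly49 classes were set up after values of these data had been seen. Genes were compared at 50 CPM or more in either class of every library. A gene is called higher or lower here if it was at least 2-fold apart in the same direction in all 3 libraries.

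Over all members together, CD8 barcodes with 2 or more Ly49 UMIs (191, 176 and 320) had 6 genes higher (0.233%) and 1 lower (0.0388%) of 2579 than barcodes with none. The higher ones included Cd7, Tcf7, Ikzf2, Klhdc2 and Pim2, and the lower one was Serpine2. After thinning, 35 were higher and 38 lower.

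Barcodes with Klra7 differed from other CD8 barcodes in many genes. Of 2663 genes compared, 54 were higher (2.03%) and 67 lower (2.52%). From 1 Klra7 UMI instead of 2, the lower genes numbered 33. Cd7, a surface protein of early and innate-like lymphocytes, was at 571, 483 and 1204 CPM in PBS, mix and homo against 29.1, 23.3 and 61.4 CPM without Ly49, a log2 ratio of 4.29 to 4.37. Tyrobp was at 71.7, 122 and 285 CPM against 6.04, 7.28 and 8.77 CPM. Klrb1c was at 65.4, 87.4 and 109.6 CPM against 6.45, 5.43 and 6.24 CPM. For each of these 3 genes all 3 values with Klra7 lay above all 3 without Ly49.

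Transcription factors of stem-like and innate-like T cells were among the higher genes. Of 13 listed factors 11 could be compared, and Tcf7, Lef1, Eomes, Ikzf2 and Id3 were higher and Id2 lower. Tcf7, encoding TCF-1, was at 180, 198 and 448 CPM against 32.2, 36.1 and 35.8 CPM (log2 2.49, 2.46 and 3.65). Ikzf2, encoding Helios, was at 402, 492 and 916 CPM against 113, 118 and 142 CPM. Id3, an inhibitor of E proteins found in memory and stem-like T cells, was at log2 ratios of 3.35, 3.13 and 3.93. Id2, its relative that marks effector cells, was at log2 ratios of -1.83, -1.59 and -1.71. Among the memory and homing genes compared, Cxcr3 and Xcl1 were higher and none was lower. Xcl1, a chemokine that attracts dendritic cells, was at log2 ratios of 2.80, 3.18 and 2.08. The median log2 ratio was 1.03 for the factors, against -0.03 over all genes compared.

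Inhibitory receptors of exhausted T cells were lower. Of 7 exhaustion genes compared, Pdcd1, Lag3, Havcr2, Ctla4 and Entpd1 were lower in the Klra7 barcodes, with a list median of -1.87. Lag3, the receptor that the study's title names, was at 79.7, 127 and 158 CPM against 633, 620 and 520 CPM, log2 ratios of -2.99 (-3.42 to -2.59), -2.29 (-2.70 to -1.91) and -1.72 (-2.05 to -1.41). Havcr2, encoding TIM-3, was at 33.5, 34.5 and 38.5 CPM against 203, 184 and 169 CPM. Cd160, which is on the list and is also known from innate-like lymphocytes, went the other way, with log2 ratios of 1.24, 1.45 and 0.95. Tigit was lower in PBS and mix (-1.18 and -1.58) and at -0.08 in homo. Outside the list, Cxcr6, a chemokine receptor of tissue T cells, was at -1.74, -1.89 and -2.24 and Tnfrsf4, encoding the costimulatory receptor OX40, at -2.70, -3.80 and -3.34.

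Cytotoxic genes were mostly at lower levels, with 6 of 7 compared having intervals below 0 in every library but only Prf1, encoding perforin, 2-fold lower throughout (-2.24, -2.43 and -2.01). Other killer lectin receptors did not go along as a group. Of 5 compared, Klrb1c was the only one 2-fold higher, and Klrc1, encoding NKG2A, was at -1.98, -1.13 and -0.97. Ccl5, a chemokine on the cytotoxic list, was at -0.59, 0.14 and 1.63. The signalling list gave Tyrobp and Fcer1g as higher, both adaptors with activating motifs, while Ptpn6, encoding the phosphatase SHP-1, was at -0.37, -0.74 and -0.77. Of the listed MHC class I genes, of which only some supply Ly49 ligands, none of 8 was 2-fold apart.

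The CD8 co-receptor itself differed in the Klra7 barcodes. Cd8b1 was at 206, 285 and 298 CPM against 1194, 1274 and 1359 CPM, and Cd8a at 695, 784 and 517 CPM against 1427, 1496 and 1039 CPM. As background, Cd8a without Cd8b1 gives the CD8 alpha homodimer, a form found on innate-like T cells. Trac was in 77.4%, 78.8% and 70% of the Klra7 barcodes, against 81.8%, 82.5% and 79.1% of those without Ly49. The NK receptor gene Ncr1 was in 1.08% and 3.03% of the Klra7 barcodes in PBS and mix. In homo it was in none of 80, which allows up to 3.75%. Without Ly49 it was in 0.0%, 0.0189% and 0.0673%. The 8 NK markers summed to 2380, 2997 and 3060 CPM against 4806, 4575 and 4408 CPM. Nkg7 was the largest part of these sums, at 1822, 2093 and 1162 CPM against 3762, 3669 and 2355 CPM. The markers did not go 1 way. Nkg7, Klrk1 and Gzma had intervals below 0 in every library, Klrb1c and Eomes were higher, and Klre1 had an interval below 0 in PBS only. Itga2 was 2-fold higher on 5, 6 and 12 UMIs. The delta constant gene Trdc was in 2.15% and 1.25% of the Klra7 barcodes in PBS and homo, on 3 and 2 UMIs. In mix it was in none of 66, which allows up to 4.55%. Without Ly49 it was in 0.368%, 0.132% and 0.0673% of barcodes in PBS, mix and homo. A gamma constant gene, Tcrg-C4, was at 51.0, 41.4 and 17.3 CPM against 0.925, 0.865 and 5.91 CPM. It stayed out of the counts, which leave out all T cell receptor genes, and also missed 50 CPM in mix and homo. Gamma transcripts can also occur in alpha beta T cells. It was chosen after its value was seen. Another, Tcrg-C1, was at 17.5, 16.1 and 21.2 CPM against 0.797, 20.2 and 11.9 CPM. The 7 dendritic markers summed to 70.2, 78.2 and 51.9 CPM against 64.1, 59.0 and 20.6 CPM, with 5 of 7 at 0, and the 4 B cell markers to 12.8, 18.4 and 9.62 CPM against 2.93, 2.57 and 2.62 CPM. The 3 CD3 genes summed to 3080, 3268 and 3162 CPM against 4839, 4953 and 4663 CPM. The summed macrophage markers were at 7.97, 4.60 and 21.2 CPM, against 12.6, 12.5 and 19.9 CPM without Ly49, with 5 to 7 of 8 at 0. Zbtb16, the factor of invariant NKT cells, was at 0 in PBS and homo and at 2.30 CPM in mix. The part of these markers in the class differences was not tested.

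Among the genes compared, none differed 2-fold in all 3 libraries in the barcodes with Klra3 alone. Of 2547 genes, none was called higher (0.0%) and none lower (0.0%), and 8 and 17 had intervals above or below 0 in all libraries. Thinned to 2000 UMIs, 4 genes were higher and 23 lower. These barcodes were deeper than barcodes without Ly49, with medians of 7071, 6739.5 and 9193 UMIs against 5056, 5615 and 6839. Lag3 was at log2 ratios of -0.14, -0.37 and 0.17, and Cd8b1 at -0.20, -0.30 and 0.03. Tnfrsf4 was at -0.96, -0.57 and -1.04, and the granzyme gene Gzme at -1.87, -2.25 and -0.33. Among the higher genes Hilpda, a hypoxia-induced lipid droplet protein, was at 0.74, 0.54 and 0.37. Some genes differed in 1 direction in PBS and homo and the other in mix, such as the adaptor gene Fcer1g at 0.53, -1.43 and 0.69. No listed gene at 50 CPM was 2-fold apart in all 3 libraries. Below that level Ccr7, a lymph node homing receptor, was at -1.58, -1.13 and -1.77 on 6, 11 and 9 UMIs. Directly against this class, Klra7 barcodes had 34 genes higher (1.31%) and 48 lower (1.85%) of 2589.

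**Figure D4:**
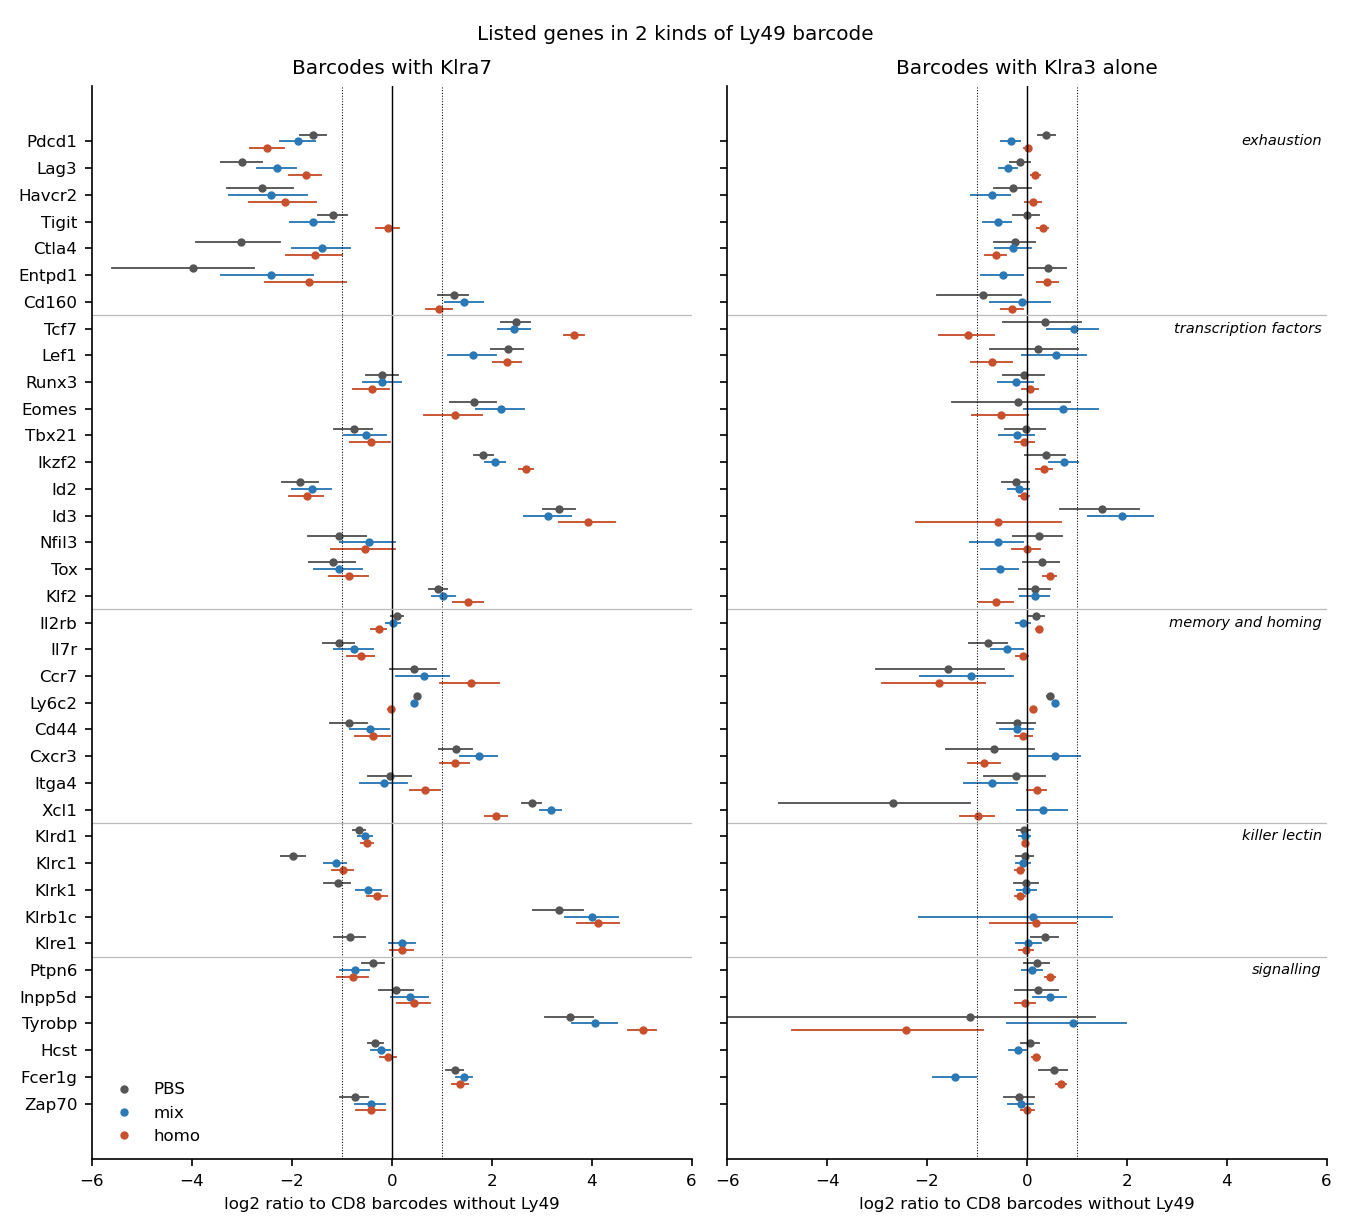
Log2 ratio of CPM in CD8 barcodes with Klra7 (left) or with Klra3 alone (right) to CD8 barcodes without Ly49, for most listed genes that could be compared on the left. Points are libraries, bars are exact intervals clipped at 6, dotted lines mark 2-fold, and ratios with no UMI on a side are not drawn. Tcf7, Klrb1c and Tyrobp lie to the right of 2-fold and Lag3 and Havcr2 to the left in all 3 libraries on the left panel only.

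Some T cell receptor V genes differed in share between the Klra3-only barcodes and those without Ly49. In homo, Trbv16 was in 64.4% and Trbv31 in 58.8% of the Klra3-only barcodes, against 23.9% and 13.8% of barcodes without Ly49. In mix Trbv16 was in 42.2% against 13.3%, and Trbv31 in 6.25% against 3.02%. In PBS, with 49 such barcodes, they were in 6.12% and 2.04%, against 9.40% and 9.46%. Klra7 barcodes of homo held Trbv16 in 12.5% and Trbv31 in 1.25%. These are beta chain V genes, of which a T cell normally expresses 1, and the pair was chosen after the values were seen. Another beta chain V gene, Trbv13-2, was in 28.6%, 26.6% and 42.4% of the Klra3-only barcodes of PBS, mix and homo. It was in 11.6%, 11.4% and 17.9% of those without Ly49 and in 9.68%, 18.2% and 20.0% of Klra7 barcodes. Klra7 barcodes differed in share as well. Trbv12-2 was in 19.4%, 16.7% and 17.5% of them, against 6.60%, 7.80% and 7.44% without Ly49 and 8.16%, 12.5% and 12.4% of the Klra3-only barcodes.

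Barcodes with both Trbv16 and Trbv31 were almost all from homo. The CD8 gate held 12 in PBS, 7 in mix and 933 in homo, where they were 14.9% of the gate and had a median of 8973 UMIs against 6587 for barcodes with neither. In homo these barcodes held 391 of 779 Klra3 UMIs (50.2%), at 41.2 CPM (37.2 to 45.5), and 21.8% of them had Klra3. Barcodes with neither V gene were at 9.29 CPM (8.29 to 10.4), and 3.48% had Klra3. Klra7 went the other way, at 0.737 CPM in the former and 5.56 CPM in the latter. In mix, the 729 barcodes with Trbv16 alone held 41.5% of the Klra3 UMIs, at 25.6 CPM (21.4 to 30.3).

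Among CD8 barcodes with neither Trbv16 nor Trbv31 the Klra3 difference between homo and PBS was smaller. Klra3 was at 7.16, 5.79 and 9.29 CPM in PBS, mix and homo, a log2 ratio of 0.38 (0.13 to 0.63) for homo over PBS and -0.31 (-0.60 to -0.01) for mix over PBS. For homo over mix it was 0.68 (0.40 to 0.96), near the 0.78 of the whole gate. Leaving out only the barcodes with both genes, the homo over PBS ratio was 0.62, from 1.32, and the homo over mix ratio was 0.08, from 0.78. Klra7 among barcodes with neither was at -1.17 (-1.43 to -0.92) for homo over PBS, close to its value over the whole gate. Barcodes of 1 library are not replicates, and whether barcodes with the same V genes descend from 1 cell was not tested.

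**Figure D5:**
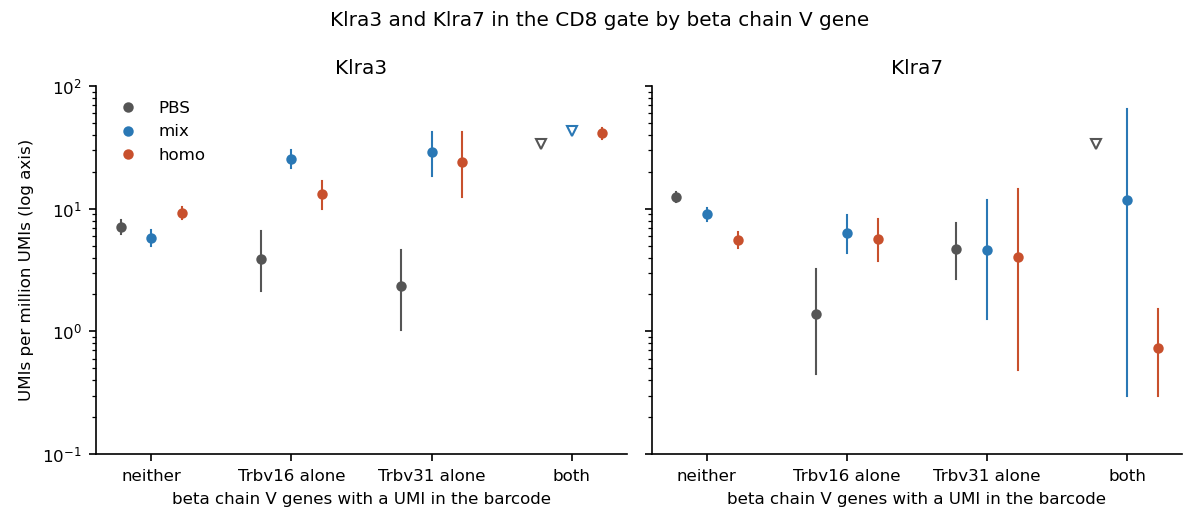
Klra3 (left) and Klra7 (right) in the CD8 gate, in CPM on a log axis, by which of Trbv16 and Trbv31 had a UMI in the barcode. Points are libraries, bars are exact Poisson intervals and open triangles are upper interval ends where no UMI was counted. Klra3 is highest in homo barcodes with both V genes, at 41.2 CPM, where Klra7 is at 0.737 CPM.

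The other Klra genes were mostly near the limit of detection. Klra5 (Ly49E) was the exception, with 258, 238 and 366 UMIs in the CD8 gate (6.46, 6.89 and 7.54 CPM) and 12, 0 and 53 UMIs in the Tyrobp gate. It was in 2.58%, 2.48% and 8.39% of Klra7 barcodes, against 0.952%, 0.910% and 2.13% without Klra7. The activating receptor genes were almost silent. Klra4 had 3, 1 and 2 UMIs and Klra8 had 0, 7 and 0 UMIs in the CD8 gate of PBS, mix and homo. In the Tyrobp gate Klra4 had 1 UMI, in mix, and Klra8 had none.

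The 8 listed MHC class I genes, of which only some supply Ly49 ligands, differed by less than 2-fold between libraries. In the CD8 gate H2-K1 was at 3588, 3872 and 3249 CPM and H2-D1 at 2607, 2908 and 2960 CPM in PBS, mix and homo. The log2 ratios of homo over PBS were -0.14 for H2-K1 and 0.18 for H2-D1. The largest of the 8 in that comparison was -0.44 for H2-T22, which was at -0.56 for homo over mix.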

How the data were processed

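Cells sorted with a CD3 antibody from MC38 tumours gave 1 single-cell 3′ library for each of PBS, mix and homo. The deposited values are raw UMI counts per gene and barcode, and per the file headers came from Cell Ranger 7.1.0. In the submitters' processing notes the versions given are Cell Ranger 2.1.1 and Seurat 4.1.0, with genome mm39. Kept barcodes had at least 500 genes and 1000 UMIs, with less than 10% from mitochondrial genes. Scrublet (scanpy 1.11.5) marked 1, 0 and 0 doublets by its own threshold, which was not usable, so the highest scores were removed at 0.8% per 1000 barcodes (803, 527 and 485).

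Levels are summed UMIs per 1000000 (CPM) with exact Poisson intervals, shares have exact Clopper-Pearson intervals, and ratios of CPM have exact conditional binomial intervals, all at 95% (scipy 1.17.1), checked on simulated data. They cover counting error only, and those of CPM and of ratios treat UMIs of the same barcode as independent. Shares at 0 are limited by 3 counts. A myeloid barcode held at least 4 of 8 macrophage genes, and a T barcode a CD3 gene and fewer than 3 of them. Genes named for a class were the 15 highest and 10 lowest by the interval end nearest 0 over the 3 libraries, at 50 CPM or more, without receptor, ribosomal and similar genes, besides the members and listed genes. The members and lists were chosen with earlier results of these data known, and the receptor classes and V genes after values were seen. Alternatives were doublet removal, mitochondrial and depth limits, gate limits, thinning, means per barcode and class limits. Sequences are from RefSeq GRCm38.p6 and GENCODE M21, not the files' build, and no coordinate was converted. A result for 1 of the listed genes is not reported here.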

Additional observations from a re-analysis of the deposited data

Results flagged for a closer look

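The CPM of Klra3 differed between homo and mix in opposite directions in the gates. The log2 ratio was 0.78 in the CD8 gate and -1.22 in the Tyrobp gate, where it rested on 22 and 16 UMIs. By share of barcodes with Klra3, homo was above mix in both gates, 2.63-fold in the CD8 gate and 1.20-fold in the Tyrobp gate. The CPM of Klra7 differed in opposite directions between mix and PBS, at -0.35 in the CD8 gate and 0.46 in the Tyrobp gate. By share of barcodes it was at 0.998-fold and 1.37-fold. With 1 library per group neither difference between the gates was tested. Barcodes outside the T and myeloid rules, which entered no comparison, held 4 Ly49 UMIs in PBS, 14 in mix and 18 in homo, in 2, 2 and 4 barcodes.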

How the results depend on the processing

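Of 309 values recomputed under the alternatives, 243 stayed near the reported value (within its counting interval or, for counts of genes, the tolerance set for them), 61 moved and 5 reversed. No cause of a change was tested. No paired analysis was possible because each group has 1 library.

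In the CD8 gate the Klra7 log2 ratio of homo over PBS, -1.23, was -0.93 without doublet removal, -0.91 after thinning, -0.64 as a mean of CPM per barcode and -0.96 without barcodes holding both Trbv16 and Trbv31, an alternative chosen after seeing the data. The homo over mix ratio, -0.88, was -0.55, -0.41, -0.48 and -0.61 in the same order. For Klra3 the homo over PBS ratio, 1.32, was 1.53 after thinning and 0.62 without those barcodes, and the homo over mix ratio, 0.78, was 0.083 without them. Klra1, at -0.89 for homo over PBS and -0.75 for homo over mix, reversed after thinning, at 0.13 and 0.35. As a mean per barcode its homo over PBS ratio was -0.23. Klra6, at -0.20 and -0.13, was at 0.74 and 0.75 after thinning, and as a mean per barcode at 0.50 for homo over PBS and 0.37 for mix over PBS. The sum for homo over PBS, 0.09, was 0.37 after thinning, 0.38 as a mean per barcode and -0.16 without those barcodes. For homo over mix it was 0.36 after thinning and -0.17 without them, and for mix over PBS 0.24 as a mean per barcode.

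In the Tyrobp gate opened to 1 UMI, the sum reversed for mix over PBS (-0.062, from 0.63) and homo over mix (0.0026, from -0.45). After thinning homo over mix was 0.031 and homo over PBS 0.67, and as means per barcode they were -0.0086 and 0.48. With the opened gate it held 20.2%, 20.9% and 29.4% of Ly49 UMIs and 1.95%, 1.87% and 4.02% of T barcodes of PBS, mix and homo, and 19.3% of its barcodes in mix and 32.7% in homo held a member. In homo this last share was 30.2% after thinning and 33.3% from 2 UMIs, and the gate held 25.5% of Ly49 UMIs without the Trbv16 and Trbv31 barcodes.

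CD8 barcodes with a member were 2.32%, 2.88% and 4.06% after thinning, 2.37%, 2.87% and 4.22% from 2 UMIs, and 5.37% in homo without those barcodes. Genes higher and lower with any member, 6 and 1, were 35 and 38 after thinning, and 0 were lower from 1 UMI. Genes lower with Klra7, 67, were 33 from 1 UMI. Genes with Klra3 alone, 0 and 0, were 4 higher and 23 lower after thinning. At 50 CPM instead of 10, genes 2-fold higher and lower in the CD8 gate were 18 and 45 for homo over PBS (from 53 and 115), 4 and 5 for mix over PBS (from 17 and 24) and 22 and 44 for homo over mix (from 64 and 109). In the Tyrobp gate they were 65 and 226 (from 421 and 965), 61 and 55 (from 613 and 699) and 77 and 251 (from 523 and 1015).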
